A study of Mus musculus with 12 samples.

Results

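Prelp, Optc and Fmod are 3 genes of small leucine-rich proteoglycans that lie close together on mouse chromosome 1, and open chromatin around them was mapped by ATAC-seq in immortalised bone marrow progenitors. The members were fixed by name, and every ATAC-seq peak that overlapped a gene span extended by 50 kb on both sides was collected. These windows held 94 of the 312201 peaks of the 12 libraries, and overlapping peaks merged to 16 regions of 56682. Across the genes of the reference, the 3 members stood among 21887 protein-coding genes, and all 3 were among the 15286 whose windows had a mean peak coverage of at least 500 bp. Coverage here means the number of bases under peaks in a window, scaled so that every library has the same total covered length. The members were chosen on the comparison of CSF3R T618I with the empty vector, so values of that comparison are given as a description, without tests.

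The cells were HoxB8 cells, mouse bone marrow progenitors immortalised by a form of the transcription factor Hoxb8 that estrogen keeps active, and grown with stem cell factor. All 4 groups were harvested 48 h after estrogen had been withdrawn, and each group had 3 libraries. The sgB2/T618I cells carried guide B2 against Asxl1, made to truncate this Polycomb-associated chromatin protein, and the vector pMICH with CSF3R T618I, a mutant form of the G-CSF receptor, which drives neutrophil growth and maturation. The sgB2/Empty cells carried the same guide with the empty pMICH vector. The sgNT/T618I cells carried a non-targeting guide with pMICH-CSF3R-T618I, and the sgNT/Empty cells carried the non-targeting guide with the empty vector. Whether each guide line was a clone or a pool, and whether the libraries within a group are from independent cultures, is not labelled, so p-values measure the spread between these libraries, which may be technical. Neither the cut in Asxl1 nor the level of the receptor can be read from peak lists.

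The lists held 18484 to 32975 peaks that covered 9.23 to 17.9 Mb, and the first sgNT/Empty library had the shortest list. Sequencing depth was not given in the sources used here. Of 9 myeloid progenitor markers, 7 had a peak within 1 kb of a gene end in all 12 libraries, Prtn3 in 8 and Elane in 1. Of the macrophage markers, Csf1r and Cd68 had such a peak in 12 libraries and Adgre1 in 10. For the cell types best known for these proteoglycans, 5 of 7 fibroblast markers and 3 of 5 chondrocyte markers had no such peak in any library, Col1a1 had one in 11, Comp in 6, Pdgfrb in 4 and Chad in 3. The 4 T cell markers had none, Ebf1 had one in 10 libraries and Cd79a in 6, and Klf1 had one in 12 and Epor in 5. One feature set the sgB2 libraries apart: chromosome 1 held 8.75 to 10.1% of their covered length, against 6.40 to 6.86% in the sgNT libraries. The means were 9.25 ± 0.54% with sgB2 and 6.64 ± 0.15% with sgNT (SD, n = 6 each, exact permutation test within vector, two-sided p = 0.005, the smallest that 400 arrangements allow). Since the cluster lies on chromosome 1, the guide comparisons averaged over vectors are given with the usual scaling and again scaled to chromosome 1.

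Small leucine-rich proteoglycans are secreted proteins of the extracellular matrix whose curved leucine-rich repeats bind collagen fibrils and steer their assembly. Fmod encodes fibromodulin, a collagen-binding protein of tendon and cartilage. Prelp encodes a protein with a basic end that binds heparan sulphate and collagen and has been described as a link between basement membranes and connective tissue. Optc encodes opticin, a glycoprotein of the vitreous of the eye. None of these proteins is a classical product of neutrophil progenitors, and an open site near a gene need not act on that gene.

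On the mm10 build Optc spans chr1:133897193-133909688 and Prelp chr1:133910304-133930102, both on the minus strand, and Fmod spans chr1:134037254-134048280 on the plus strand. The windows of Optc and Prelp share 99385 bp, so these genes are close to a single measurement, while 7151 bp separate the Prelp window from that of Fmod. The Fmod window also holds Btg2, an antiproliferative gene at chr1:134074865-134079155 on the minus strand. Besides these 4 protein-coding genes, the reference lists 5 long non-coding RNA genes (Gm31515, Bmncr, Gm19497, Gm31974 and Gm32039) and 1 pseudogene in the interval.

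The promoters of the proteoglycan genes are shown beside those of Gm19497 and Btg2, since their CpG counts differ. Each is 300 bases, 250 before and 50 after the start in the RefSeq table of GRCm38.p6, read 5′ to 3′ on the strand of the gene, with CpG dinucleotides in capitals. For Optc and Prelp the gene span reaches further upstream than the start used here.
Optc: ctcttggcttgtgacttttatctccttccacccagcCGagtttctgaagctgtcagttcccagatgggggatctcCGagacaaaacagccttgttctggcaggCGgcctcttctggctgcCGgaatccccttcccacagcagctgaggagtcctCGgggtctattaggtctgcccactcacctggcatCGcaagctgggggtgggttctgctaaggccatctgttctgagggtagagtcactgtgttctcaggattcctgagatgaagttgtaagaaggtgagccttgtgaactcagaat
Prelp: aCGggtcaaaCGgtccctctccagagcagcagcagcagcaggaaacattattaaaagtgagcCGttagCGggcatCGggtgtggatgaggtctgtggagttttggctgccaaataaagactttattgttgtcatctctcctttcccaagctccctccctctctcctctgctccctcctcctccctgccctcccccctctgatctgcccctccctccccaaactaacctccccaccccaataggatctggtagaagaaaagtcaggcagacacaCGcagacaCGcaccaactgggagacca
Fmod: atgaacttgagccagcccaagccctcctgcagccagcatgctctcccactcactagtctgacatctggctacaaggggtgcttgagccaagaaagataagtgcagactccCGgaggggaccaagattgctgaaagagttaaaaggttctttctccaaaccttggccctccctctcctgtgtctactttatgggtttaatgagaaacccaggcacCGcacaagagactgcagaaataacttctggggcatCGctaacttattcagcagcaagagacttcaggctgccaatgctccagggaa
Gm19497: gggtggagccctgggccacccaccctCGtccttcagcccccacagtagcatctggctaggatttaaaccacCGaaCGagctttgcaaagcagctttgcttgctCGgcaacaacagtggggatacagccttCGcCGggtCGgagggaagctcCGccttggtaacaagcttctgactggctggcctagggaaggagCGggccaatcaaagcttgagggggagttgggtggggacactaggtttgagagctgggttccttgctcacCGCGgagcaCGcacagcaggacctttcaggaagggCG
Btg2: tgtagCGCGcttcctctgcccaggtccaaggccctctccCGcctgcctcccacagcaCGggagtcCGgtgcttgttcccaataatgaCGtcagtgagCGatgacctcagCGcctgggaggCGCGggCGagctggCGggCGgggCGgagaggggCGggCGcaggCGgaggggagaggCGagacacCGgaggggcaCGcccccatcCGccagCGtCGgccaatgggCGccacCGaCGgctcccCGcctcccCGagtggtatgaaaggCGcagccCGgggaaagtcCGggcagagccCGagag

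The Optc promoter (chr1:133907950-133908249) has 6 CpGs, the Prelp promoter (chr1:133921352-133921651) has 7 and the Fmod promoter (chr1:134037004-134037303) has 3. None of these promoters overlapped a peak in any of the 12 libraries. The Btg2 promoter (chr1:134079106-134079405) has 32 CpGs and overlapped a peak in all 12 libraries. The Gm19497 promoter (chr1:134060898-134061197), that of a long non-coding RNA gene, has 13 CpGs and overlapped a peak in 11 libraries. Across 17492 promoters of the same length the median CpG count was 13. Of promoters with at most 4 CpGs, 92.7% overlapped no peak in any library, and of those with 5 to 9, 73.5% overlapped none. Of promoters with 10 to 19 CpGs, as at Gm19497, 51.9% overlapped a peak in all 12 libraries and 34.5% overlapped none. Of promoters with 20 or more CpGs, 71.3% overlapped a peak in all 12 libraries. The absence of peaks at the proteoglycan promoters and their presence at the Btg2 promoter were thus each the commoner state of promoters with such CpG counts. The GC contents were 54.3% for Optc, 55.3% for Prelp, 51.0% for Fmod, 60.3% for Gm19497 and 72.0% for Btg2, against a median of 56.3% over all promoters.

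Motifs were searched on both strands by letters. The GATA letters AGATAA matched once in Optc, from -233 to -228 relative to the start on the opposite strand, and once in Fmod, from -157 to -152. The C/EBP letters TTGCNNAA matched once in Fmod, from -125 to -118. No match to these letters or to those of PU.1 (GAGGAAGT), STAT (TTCNNNGAA), AP-1 (TGANTCA) or RUNX (TGTGGT) was found in the Prelp, Gm19497 or Btg2 promoters, there was no further match in Optc or Fmod, and no matches overlapped. Of all promoters, 9.96% hold the GATA letters, 10.1% those of C/EBP, 3.17% those of PU.1, 7.83% those of STAT, 7.08% those of AP-1 and 15.1% those of RUNX. A match is a run of letters and was not tested as a binding site.

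No peak of any library lay inside Optc or Fmod, and 1 peak lay inside Prelp, of 261 bp in the third sgB2/T618I library. The recurrent peaks lay between protein-coding genes, some of them inside lncRNA genes, and at Btg2. Of the 16 regions, 7 lay on the Optc and Prelp side and 9 on the Fmod side. A total of 6 regions were found in 1 library each, 10 in at least 2, and 2 in all 12. The 10 recurrent regions are called A to J in chromosome order.

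**Figure D1:**
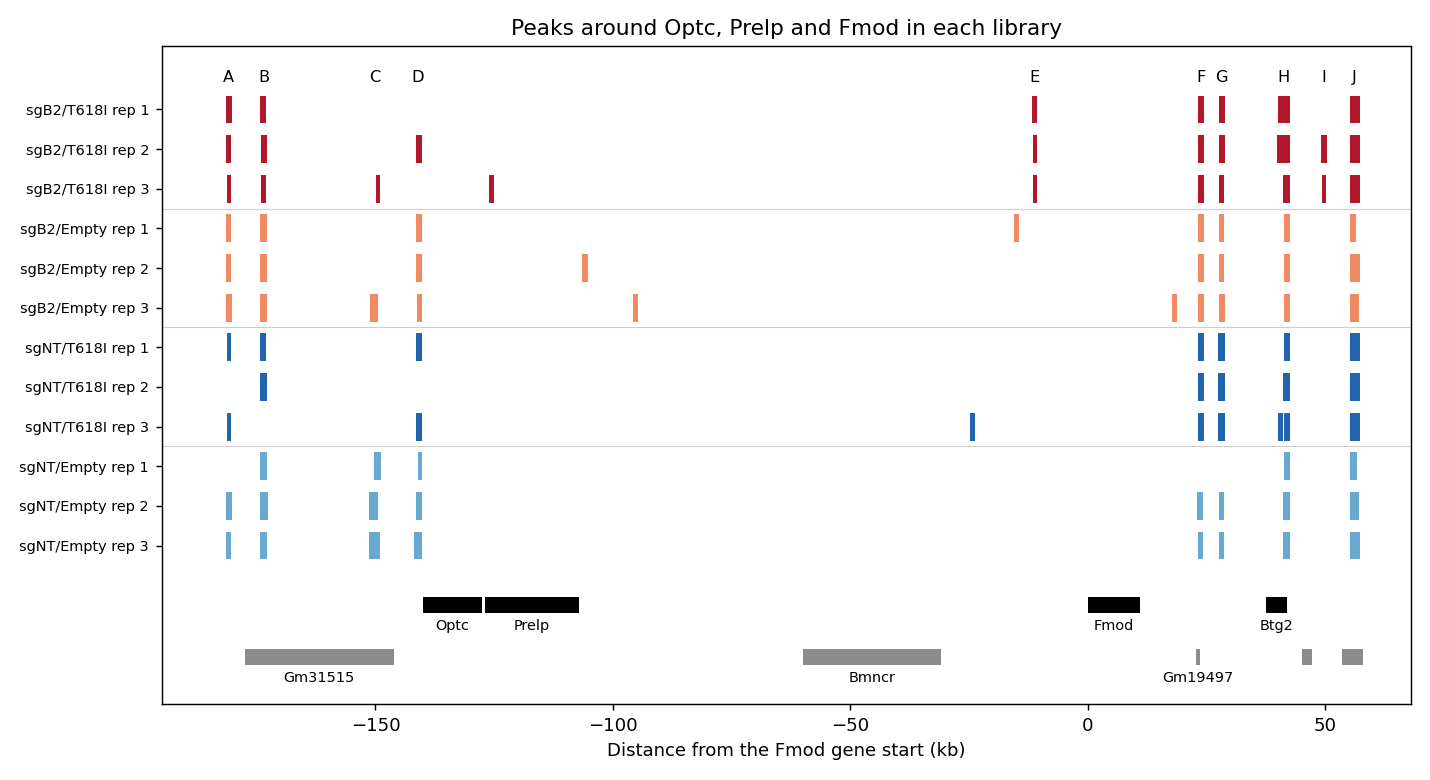
Peaks of each library (rows, grouped by guide and vector) along the cluster, with the horizontal axis giving the distance from the Fmod gene start in kb. Coloured bars are peaks, widened by 0.4 kb on each side so that they can be seen, black bars are protein-coding genes, grey bars are long non-coding RNA genes, and letters mark the 10 regions found in at least 2 libraries. Region C is filled in 3 of 3 sgNT/Empty libraries and region E in 3 of 3 sgB2/T618I libraries, while the spans of Optc and Fmod hold no peak.

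The Optc and Prelp side held regions A to D, all downstream of Optc. Region A (chr1:133856183-133856556) had a peak in 10 libraries and lies in the Optc window only. Region B (chr1:133863323-133864114) had a peak in 11 libraries and lies inside the lncRNA gene Gm31515, 33079 bp from Optc. Region C (chr1:133886340-133888054) also lies inside Gm31515, 9139 bp from Optc, and had a peak in 5 libraries. Region D (chr1:133895729-133896723) lies between genes, 470 bp beyond the end of Optc, and had a peak in 9 libraries. The other 3 regions of this side were each found in a single library.

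These peaks were weak. When the peaks of each library were ordered by the authors' −log10 q, the median of the 38 peaks on the Optc and Prelp side lay at the 79.0% point of its list, counted from the strongest. The 56 peaks of the Fmod side had their median at 30.7%. At a −log10 q of at least 5, 4 of the 38 peaks were left on the Optc and Prelp side, 0 of 15 in T618I libraries and 4 of 23 in Empty libraries. On the Fmod side 40 of 56 were left, 23 of 32 in T618I libraries and 17 of 24 in Empty libraries. Of all peaks, 11777 of 18484 reached that level in the shortest list (first sgNT/Empty library). In the longest list (second sgB2/T618I library) 19094 of 32975 did. The same regions are counted once per library, so these peaks are not independent.

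The Fmod side held regions E to J. Region E (chr1:134025972-134026266) lies 10988 bp upstream of Fmod and was the recurrent region closest to it. Region F (chr1:134060717-134061409) covers the Gm19497 promoter and had a peak in 11 libraries. Region G (chr1:134065182-134065692) lies between Gm19497 and Btg2 and had a peak in 11 libraries. Region H (chr1:134077620-134079523) covers the Btg2 promoter and region J (chr1:134092818-134094156) lies inside the lncRNA gene Gm32039, and both had a peak in all 12 libraries. Region I (chr1:134086881-134087256), between Btg2 and Gm32039, had a peak in 2 libraries, both of sgB2/T618I. No peak in the windows overlapped Bmncr. At the edge of the windows, region J was the last one inside, and the next region (chr1:134099099-134099571) lay 0.819 kb outside the Fmod window. It had a peak in 2 of 3 sgB2/T618I, 3 of 3 sgB2/Empty, 3 of 3 sgNT/T618I and 0 of 3 sgNT/Empty libraries. On the other edge, region A was the first inside and the nearest region outside lay 25.7 kb away, with a peak in 5 libraries.

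With T618I, open chromatin around Optc and Prelp was less than that with the empty vector in both guide backgrounds, and around Fmod it was slightly more on average. In bulk libraries, fewer cells with a site open and less access per cell cannot be told apart. These differences chose the members and are described only. Around Prelp the scaled coverage was 0.519, 0.704 and 0.993 kb in the sgB2/T618I libraries and 1.66, 1.82 and 2.22 kb in the sgB2/Empty libraries. In cells with the non-targeting guide it was 0.837, 0.475 and 0.393 kb in the sgNT/T618I libraries and 2.18, 2.40 and 2.43 kb in the sgNT/Empty libraries. All 6 T618I libraries lay below all 6 Empty libraries, and the closest values were 0.993 kb with T618I and 1.66 kb with Empty. The share of all genes or regions with such a separation is not given, so nothing is read from it here or below.

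Around Optc, which shares most of these peaks, the scaled coverage was 0.841, 0.934 and 1.21 kb in the sgB2/T618I libraries and 2.03, 2.12 and 2.59 kb in the sgB2/Empty libraries. It was 1.02, 0.475 and 0.560 kb in the sgNT/T618I libraries and 2.18, 2.75 and 2.68 kb in the sgNT/Empty libraries. Again no T618I library reached the lowest Empty library. Around Fmod the scaled coverage was 3.28, 3.56 and 3.36 kb in the sgB2/T618I libraries and 2.76, 2.67 and 2.92 kb in the sgB2/Empty libraries. It was 2.13, 2.57 and 2.80 kb in the sgNT/T618I libraries and 1.46, 2.42 and 1.94 kb in the sgNT/Empty libraries. For Fmod the T618I and Empty ranges overlapped over both guides and within sgNT, but not within sgB2.

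**Figure D2:**
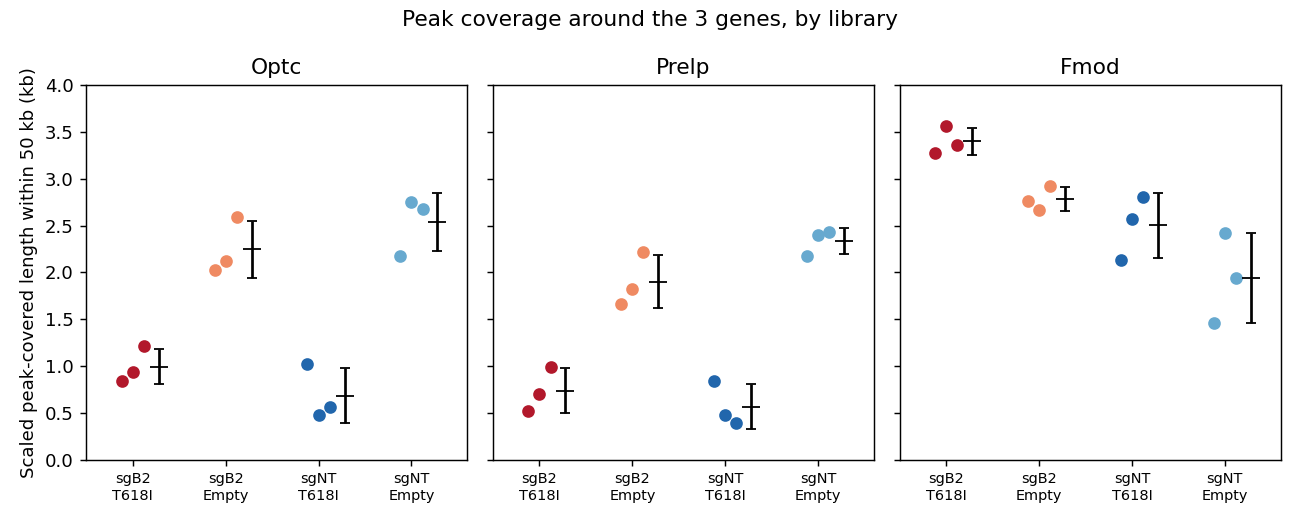
Scaled peak-covered length (kb, vertical axis) in the window of each gene in every library. Points are libraries, horizontal bars are group means and error bars are SD (n = 3). Optc and Prelp have all 6 T618I libraries below all 6 Empty libraries, and the Fmod ranges of T618I and Empty overlap.

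The group means for Prelp were 0.739 ± 0.239 kb in sgB2/T618I, 1.9 ± 0.28 kb in sgB2/Empty, 0.568 ± 0.236 kb in sgNT/T618I and 2.33 ± 0.14 kb in sgNT/Empty cells (SD, n = 3 each). For Optc they were 0.995 ± 0.191, 2.25 ± 0.30, 0.686 ± 0.295 and 2.53 ± 0.31 kb in the same order of groups. For Fmod they were 3.40 ± 0.14, 2.78 ± 0.13, 2.50 ± 0.34 and 1.94 ± 0.48 kb in that order. After addition of 500 bp, the limma estimate of the T618I difference averaged over guides was -1.20 ± 0.13 on the log2 scale for Prelp, -1.13 ± 0.13 for Optc and 0.28 ± 0.10 for Fmod (estimate ± SE, 12 libraries). Prelp was the second lowest and Optc the fourth lowest of the 15286 genes, and Fmod was at rank 1468 from the highest. The median over all genes tested was -0.05. In this contrast 371 genes were called lower (2.43% of those tested) and 621 were called higher (4.06%, and 6.49% in either direction) at an adjusted p below 0.05, and nothing is read from the members' place among them. Addition of 500 bp understates the change of genes with little coverage.

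The T618I difference was of the same sign in both guide backgrounds. For Prelp it was -0.97 ± 0.18 in sgB2 and -1.43 ± 0.18 in sgNT cells, for Optc -0.88 ± 0.18 in sgB2 and -1.38 ± 0.18 in sgNT cells, and for Fmod 0.25 ± 0.15 in sgB2 and 0.31 ± 0.15 in sgNT cells. Of all genes, 1.6% were called in sgB2 and 1.49% in sgNT cells, and nothing is read from this for the members. These estimates moved with the constant added and with the peak lists. With lists cut to equal length, 5 of 6 T618I libraries had no coverage around Prelp. The T618I libraries did not overlap the Empty libraries, of which none was at 0. This is the comparison that chose the members, on part of the same peaks, so it adds no support. At the stricter −log10 q of at least 5, all 6 T618I libraries and 3 of 6 Empty libraries had no coverage around Prelp, and the groups overlapped. Within 10 kb of the gene, 5 of 6 libraries had no coverage around Prelp with either vector, so the difference lay in peaks further away.

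Region C held the largest share of the difference around Prelp. The mean T618I minus Empty difference in the Prelp window was -1464 bp, of which region C made up 44.8%, region B 26.9% and region D 22.2%. Region C had a peak in 1 of 3 sgB2/T618I libraries, 1 of 3 sgB2/Empty libraries, 0 of 3 sgNT/T618I libraries and 3 of 3 sgNT/Empty libraries. Its scaled width was 257 bp in the single sgB2/T618I library that had it, 862 bp in the single sgB2/Empty library and 1148, 1042 and 1145 bp in the sgNT/Empty libraries. A pattern of at least 4 of 6 Empty libraries with a peak and at most 1 of 6 T618I libraries, which region C meets, was found in 590 of 37113 regions (1.59%), and the opposite pattern in 2105 (5.67%).

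Regions B and D kept peaks with T618I but were narrower or rarer. Region B averaged 371 ± 188 bp of scaled width in T618I libraries and 765 ± 136 bp in Empty libraries (SD, n = 6 each, a library without a peak counted as 0). The 5 T618I libraries that had region B lay between 376 and 519 bp and the 6 Empty libraries between 590.3 and 1009.7 bp, without overlap. Region D had a peak in 3 of 6 T618I libraries and 6 of 6 Empty libraries, with means of 191 ± 212 and 516 ± 154 bp in T618I and Empty libraries. Region A had a peak in 5 of 6 libraries with either vector, with means of 187 ± 106 bp for T618I and 273 ± 142 bp for Empty.

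**Figure D3:**
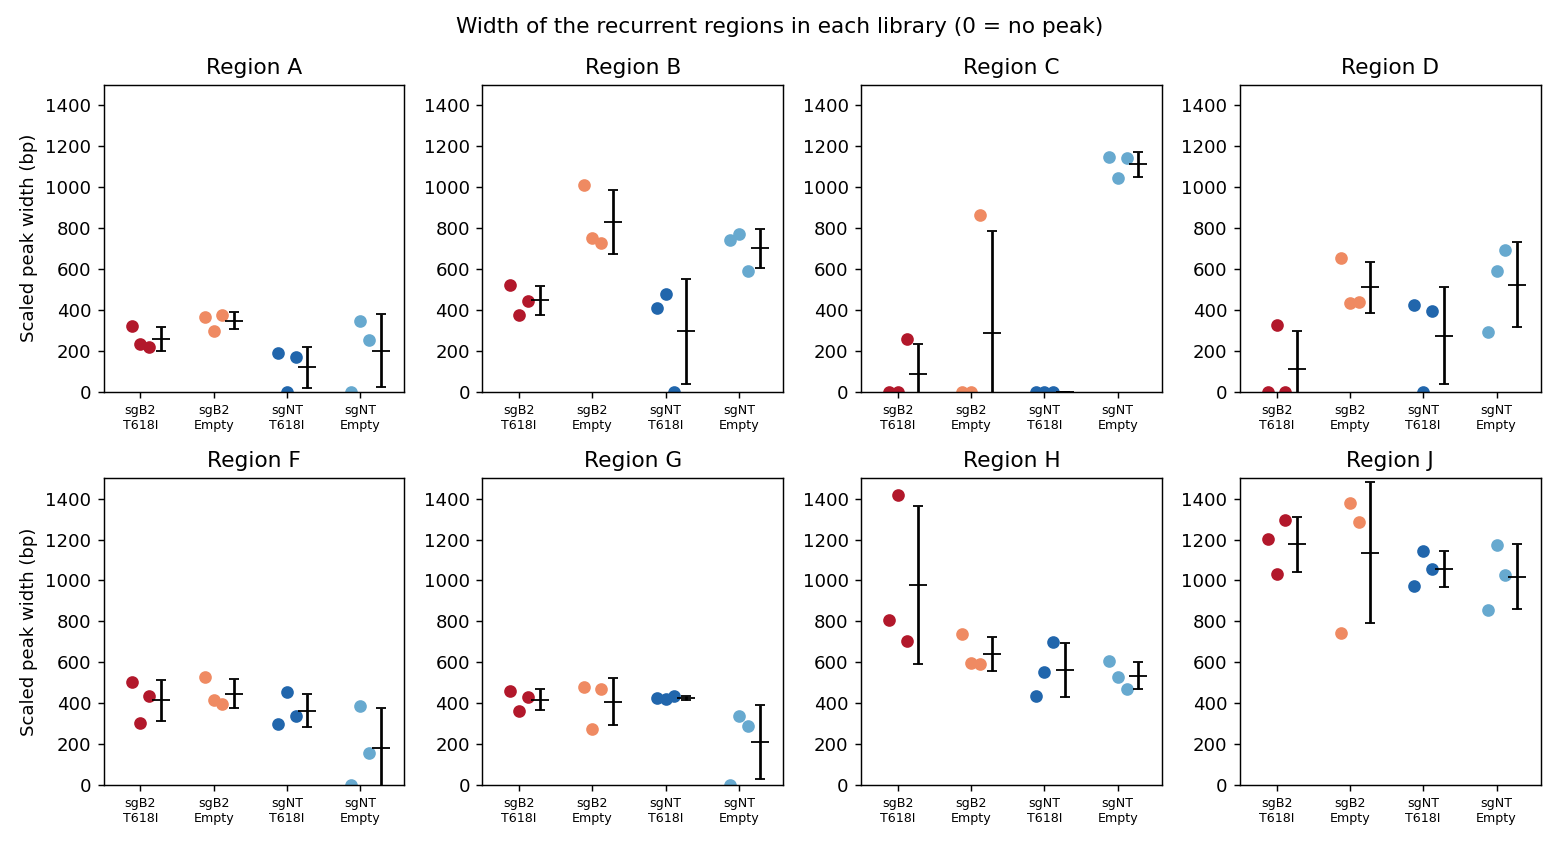
Scaled peak width (bp, vertical axis, 0 where a library has no peak) of the 8 regions found in at least 5 libraries, by group. Points are libraries, horizontal bars are means and error bars are SD (n = 3), drawn down to 0 at most. Region C lies at 0 in the sgNT/T618I libraries and between 1042 and 1148 bp in the sgNT/Empty libraries, and region H has peaks in all 12 libraries.

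On the Fmod side, the mean T618I minus Empty difference was 587 bp, spread over region H (31.0%), region E (19.8%), region G (19.3%) and region I (15.6%). Region H, which holds the Btg2 promoter, averaged 770 ± 343 bp in T618I libraries and 588 ± 89 bp in Empty libraries (SD, n = 6 each). The widest value, 1418 bp in the second sgB2/T618I library, was a single peak that joined the promoter to a weak site inside Btg2. Separate weak peaks at that site added 257 bp in the first sgB2/T618I library and 177 bp in the third sgNT/T618I library. Leaving out the second sgB2/T618I library, the promoter peak alone was 437 to 706 bp with T618I and 471 to 737 bp with Empty. Region J averaged 1117 ± 121 bp in T618I and 1077 ± 248 bp in Empty libraries. Region F averaged 388 ± 86 bp in T618I and 313 ± 195 bp in Empty libraries.

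Region G is described by rank as well as by width. It averaged 420 ± 33 bp in T618I and 307 ± 174 bp in Empty libraries (SD, n = 6 each). Its peaks stood within the top 16.9 to 34.7% of the lists by −log10 q in the 6 T618I libraries, and within the top 58.9 to 86.7% in the 5 Empty libraries that had it, without overlap. At a −log10 q of at least 5 it was present in 6 of 6 T618I and 2 of 6 Empty libraries. The share of all regions with such ranks or counts is not given, so nothing is read from them. Ranks within lists cannot show whether the signal changed, and the cause of the shift in rank was not tested. Coverage around Btg2, whose window shares these regions, was 3.56 ± 0.20 kb in sgB2/T618I, 3.06 ± 0.24 kb in sgB2/Empty, 3.11 ± 0.24 kb in sgNT/T618I and 1.94 ± 0.48 kb in sgNT/Empty cells.

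Region E was found in all 3 sgB2/T618I libraries and in none of the other 9, with scaled widths of 308, 153 and 237 bp. The same pattern was found in 146 of 37113 regions (0.393%). This share is over all chromosomes, while chromosome 1 held more of the covered length in sgB2 than in sgNT libraries. The share on chromosome 1 alone is not given. The peaks of region E were weak, at the 65.4 to 80.0% points of their lists, and none reached a −log10 q of 5. Region I, 49.8 kb downstream of the Fmod start, also had its 2 peaks in sgB2/T618I libraries, and the share of regions with that pattern is not given. A test of the guide for region E, stratified by vector, gave an exact p = 0.1, adjusted to 1 over 37113 regions. That is the smallest exact p it can give for a region found in 3 libraries of 1 vector. No region anywhere passed that test (0 of 37113, 0%, with 355 at an unadjusted p below 0.05). For any region the smallest exact p is 0.005, which with 355 regions below 0.05 cannot pass the adjustment. The test therefore could not call region E or any other region, and nothing is read from it.

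With the usual scaling, the guide against Asxl1 went with more open chromatin around Fmod, while around Optc and Prelp no difference passed the test. The coverage around Fmod averaged 3.09 ± 0.36 kb in sgB2 libraries and 2.22 ± 0.48 kb in sgNT libraries (SD, n = 6 each). Fmod was 0.41 ± 0.10 higher on the log2 scale (limma, 12 libraries, adjusted p = 0.0407). Among all genes 233 were called higher (1.52%) and 199 lower (1.3%) in this contrast, 2.83% in all, and 1 of the 3 members was among those called. The lowest sgB2 library was at 2.67 kb and the highest sgNT library at 2.80 kb, so the ranges overlapped. With the empty vector alone the difference was 0.45 ± 0.15 (limma adjusted p = 0.207) and with T618I alone 0.38 ± 0.15 (limma adjusted p = 0.35). In those 2 comparisons 0.353% and 0.36% of all genes were called. The regions that made up the difference of 869 bp were H (29.9%), F (18.1%), J (13.6%), E (13.4%) and G (10.9%).

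Genes across chromosome 1 had higher coverage with sgB2 as well. Of 945 tested genes on chromosome 1, 154 were called higher with sgB2 by limma (16.3%) and 0 lower (560 higher and 1 lower at an unadjusted p below 0.05), with a median change of 0.28 on the log2 scale, while the median of the genes on other chromosomes was -0.01. Of the chromosome 1 genes, 256 had a larger change than Fmod. When coverage was scaled to equal covered length on chromosome 1, Fmod differed by 0.02 ± 0.11 (limma adjusted p = 0.885, beside a chromosome 1 median of -0.09), with 2.65 ± 0.35 kb in sgB2 and 2.63 ± 0.52 kb in sgNT libraries. What lies behind the chromosome 1 share was not tested. The Fmod call was also lost when 11 of the 12 libraries were left out singly, with a change of 0.34 to 0.48 and a limma adjusted p of 0.0234 to 0.115 over all 12. It passed without the second sgNT/Empty library. The call was lost as well without scaling (0.26, limma adjusted p = 0.499), with stricter peaks (0.41, limma adjusted p = 0.14) and with equal-length lists (0.40, limma adjusted p = 0.0748).

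**Figure D4:**
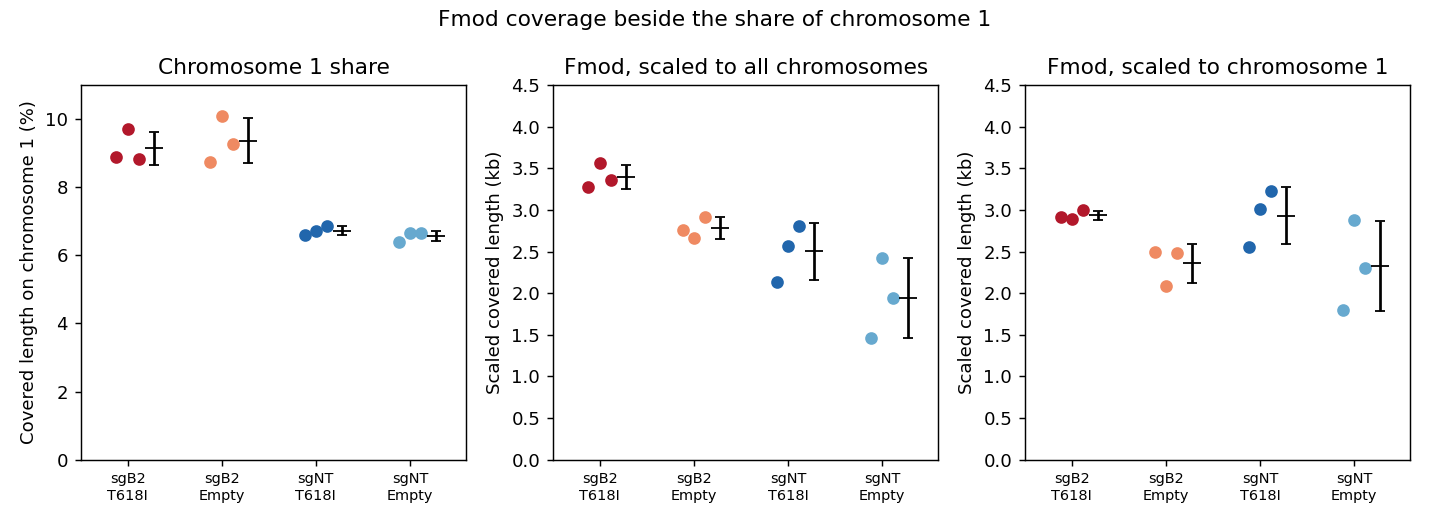
Share of covered length on chromosome 1 (left, percent), Fmod coverage scaled to all chromosomes (middle, kb) and Fmod coverage scaled to chromosome 1 (right, kb) in every library. Points are libraries, horizontal bars are means and error bars are SD (n = 3). The sgB2 libraries lie above the sgNT libraries in the share, and Fmod averages 2.65 kb with sgB2 and 2.63 kb with sgNT once scaled to chromosome 1.

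For Optc the guide difference was 0.11 ± 0.13 on the log2 scale (limma adjusted p = 0.783), with 1.62 ± 0.72 kb in sgB2 and 1.61 ± 1.05 kb in sgNT libraries. For Prelp it was -0.01 ± 0.13 (limma adjusted p = 0.983), with 1.32 ± 0.68 kb in sgB2 and 1.45 ± 0.98 kb in sgNT libraries (SD, n = 6 each). Scaled to chromosome 1, Prelp was 0.34 ± 0.14 lower with sgB2 on the log2 scale (limma estimate -0.34, adjusted p = 0.0331), and Optc was at -0.24 (limma adjusted p = 0.112). Under that scaling the median of all genes moved to -0.38, that of chromosome 1 genes was -0.09, and 10702 genes were called. The Prelp value stood close to the median of all genes, but 76 of 936 chromosome 1 genes had a lower value. The direction for Optc and the call for Prelp thus followed the scaling. Within the empty vector, where most of their coverage lies, Optc was at -0.14 ± 0.18 (limma adjusted p = 0.864) and Prelp at -0.25 ± 0.18 (limma adjusted p = 0.691). With T618I they were at 0.35 ± 0.18 (limma adjusted p = 0.54) and 0.22 ± 0.18 (limma adjusted p = 0.808).

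Scaled to chromosome 1, both genes passed the test within the empty vector. Prelp was at -0.66 ± 0.19 (limma adjusted p = 0.0135), with 1.61 ± 0.25 kb in sgB2/Empty and 2.81 ± 0.11 kb in sgNT/Empty libraries, and Optc at -0.57 ± 0.19 (limma adjusted p = 0.0241), with 1.9 ± 0.28 kb in sgB2/Empty and 3.04 ± 0.31 kb in sgNT/Empty libraries (SD, n = 3 each). In this comparison the median of chromosome 1 genes was -0.11, that of genes on other chromosomes -0.42, and 7115 genes were called. Of 936 chromosome 1 genes, 10 had a lower value than Prelp, and with the usual scaling 10 of 945 did. With equal-length lists the values turned to 0.36 for Optc and 0.089 for Prelp. Within T618I, scaled to chromosome 1, Optc was at 0.08 ± 0.19 (limma adjusted p = 0.718) and Prelp at -0.03 ± 0.19 (limma adjusted p = 0.911).

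The difference between the T618I change in sgB2 and that in sgNT cells was 0.50 ± 0.25 for Optc, 0.46 ± 0.26 for Prelp and -0.06 ± 0.21 for Fmod (limma estimate ± SE). This term contains the T618I change on which the members were chosen, so the values are a description with no test. Of all genes, 0.00654% (1 gene) were called for it. Over the whole interval of the windows, coverage averaged 4711 ± 464 bp in sgB2 libraries and 3831 ± 866 bp in sgNT libraries (SD, n = 6 each). The difference of 0.880 kb gave an exact p = 0.02 (two-sided, guide labels permuted within vector, 400 arrangements). Scaled to chromosome 1 it was -0.528 kb, with 4028 ± 422 bp in sgB2 and 4556 ± 1043 bp in sgNT libraries (exact p = 0.19). The exact p rose to 0.06 without the third sgB2/Empty library (0.720 kb), to 0.08 without the first (0.744 kb) or second (0.722 kb) sgNT/T618I library and to 0.075 without the third (0.787 kb).

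The neighbouring genes had T618I values closer to 0 than those of Optc and Prelp. The members were chosen on this comparison, which makes such a difference likely, so nothing is read from it. Of 11 protein-coding genes within 250 kb, all tested, T618I values ran from -0.52 to 0.40 on the log2 scale with a median of -0.09. Below the cluster, Zc3h11a (-0.30 ± 0.21), Zbed6 (-0.32 ± 0.19), Lax1, an adaptor protein of lymphocytes (-0.52 ± 0.18), and Atp2b4, a plasma membrane calcium pump (-0.33 ± 0.12), were on the lower side. Beyond Fmod, Btg2 (0.39 ± 0.10), the chitinase gene Chit1 (0.39 ± 0.11), its relative Chil1 (0.33 ± 0.29), Mybph (0.40 ± 0.32) and the adenosine receptor gene Adora1 (0.40 ± 0.32) were on the higher side. Myog, the myogenic factor gene (-0.09 ± 0.15), and Ppfia4 (-0.23 ± 0.14) followed. The estimates were thus negative up to Prelp, positive from Fmod to Adora1 and negative for Myog and Ppfia4. The SEs of Chil1, Mybph, Adora1 and Myog were close to or above the size of their values, so no boundary is read from the signs. Windows of neighbours overlap, so Btg2, Chit1 and Fmod share peaks, and Mybph and Adora1 had identical coverage. In the guide comparison all 11 neighbours had positive values, from 0.11 to 0.54 with a median of 0.25, which is below the chromosome 1 median of 0.28. Of these 1 passed the test, Atp2b4 (0.54 ± 0.12, limma adjusted p = 0.0243), against 16.3% of all chromosome 1 genes, with 2.18 and 3.32 kb in sgB2/T618I and sgB2/Empty cells and 1.61 and 1.83 kb in sgNT/T618I and sgNT/Empty cells. Scaled to chromosome 1, Atp2b4 was at 0.15 ± 0.12 (limma adjusted p = 0.262). Btg2 was at 0.37 ± 0.10 (limma adjusted p = 0.0623).

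**Figure D5:**
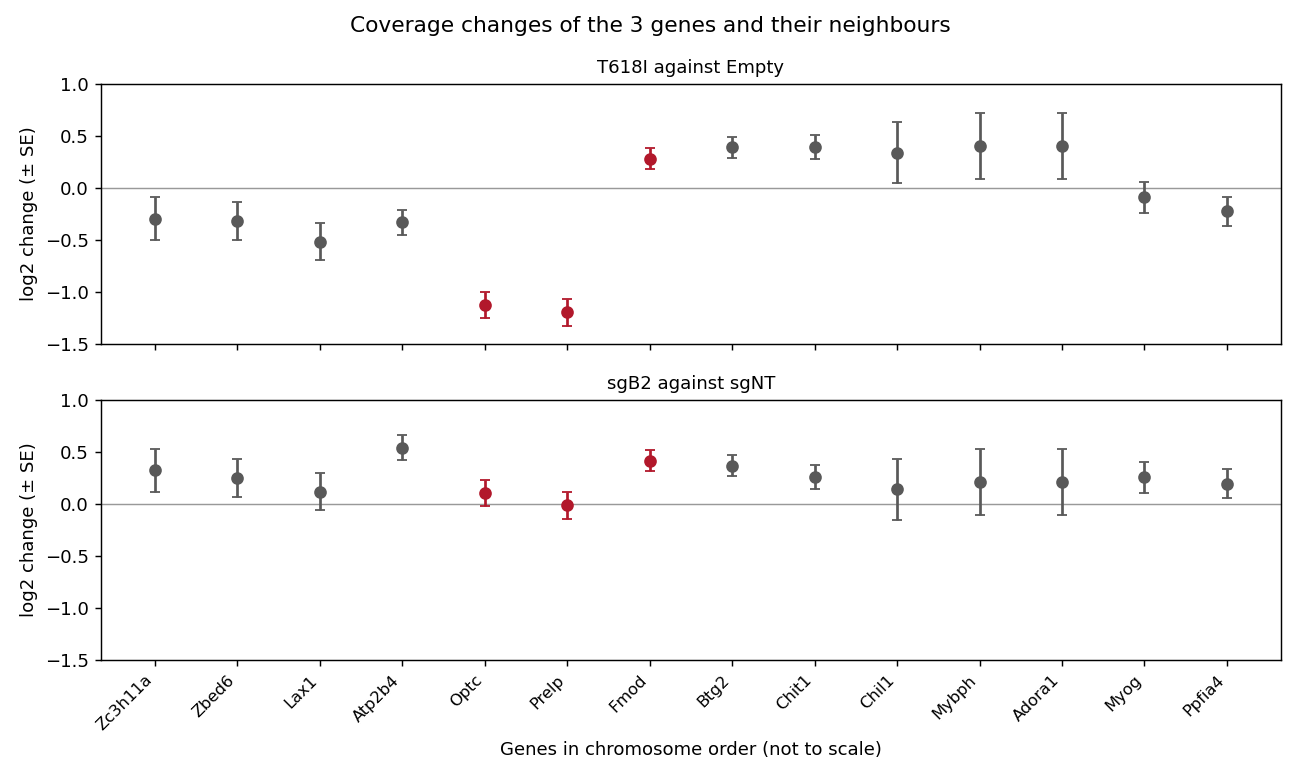
Log2 change in coverage (vertical axis) of T618I against Empty (top) and sgB2 against sgNT (bottom) for the 3 members (red) and 11 neighbours (grey) in chromosome order. Points are limma estimates and error bars are SE (12 libraries). Optc and Prelp, chosen on the T618I comparison, stand at -1.13 and -1.20 for it, and the neighbours lie between -0.52 and 0.40. All neighbours are above 0 for sgB2.

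Other genes of the proteoglycan family had little or no open chromatin in their windows, or were not called. Of 14 other small leucine-rich proteoglycan genes, 7 had enough coverage to be tested (Bgn, Ogn, Chad, Nyx, Tsku, Podn and Podnl1), and 4 (Dcn, Aspn, Lum and Kera) had no coverage in any library. Ecm2 had coverage in 6 libraries and Omd in 8, below the minimum. Bgn encodes biglycan and Dcn decorin, the best-known members of the family. None of the 7 was called in any of the 7 contrasts by limma, and 4 of the 49 tests had an unadjusted p below 0.05, for Tsku and Chad, with a median T618I change of -0.02 against -0.05 over all genes, and a median guide change of 0.01 against 0.00 over all genes. The largest of the tested coverages was 3.19 kb around Podnl1, and Fmod, at 2.66 kb over all libraries, was above the 6 others. Of 12 genes of collagens and other matrix partners, 7 were tested and none was called by limma (1 of 49 tests at an unadjusted p below 0.05, for the perlecan gene Hspg2), with medians of -0.02 for T618I and 0.03 for the guide. Of all 15286 genes, 1544 were higher and 1911 lower at an unadjusted limma p below 0.05 for the T618I average. For the sgB2 average 1151 were higher and 1242 lower at that level. Col3a1, a fibrillar collagen gene on chromosome 1, had no coverage in any library.

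Across the 12 libraries, log2 coverage of Optc and Prelp followed each other with a Pearson r of 0.987, as shared windows require, and Fmod had r = -0.402 with Optc and r = -0.496 with Prelp. Genes elsewhere in the genome whose coverage was most like that of Prelp were Rgs9bp on chromosome 7 (r = 0.950), Fam136a on chromosome 6 (r = 0.938), Maf on chromosome 8 (r = 0.925), Coq9 on chromosome 8 (r = 0.922) and Defb36 on chromosome 2 (r = 0.911), of 15255 genes compared. These values are over 12 libraries that fall into T618I and Empty libraries, so the T618I difference enters each of them. Maf, the gene of a basic leucine zipper transcription factor, had 0.167 kb in sgB2/T618I, 0.841 kb in sgB2/Empty, 0.127 kb in sgNT/T618I and 1.22 kb in sgNT/Empty cells, which is the same order of groups as Prelp in its means. Coverage around Coq9, a gene of coenzyme Q synthesis, was 2.21 kb in sgB2/T618I, 3.44 kb in sgB2/Empty, 2.05 kb in sgNT/T618I and 3.43 kb in sgNT/Empty cells.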

How the data were processed

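The deposited files were 12 broad peak lists, 1 per library, on mm10. Per the submitters' processing notes the tools were BWA 0.7.17, SAMtools 1.9, bedtools 2.30, MACS2 2.2.7.1 and deepTools 3.5. The deposited score and fold (a ratio over background) were not used. The −log10 p was not used, and the −log10 q deposited by the authors ranked and filtered peaks within a list only, since it moves with depth, which is unknown. Widths come from peak coordinates on chromosomes 1 to 19, X and Y.

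Peaks that shared at least 1 bp were joined into regions. Covered length per protein-coding gene (GRCm38.p6 table, same coordinates as mm10, span ± 50 kb) was set to the same library total and, after addition of 500 bp, analysed as log2 in limma 3.58.1 (trend, R 4.3.3) with 4 groups, with 8 residual degrees of freedom and Benjamini-Hochberg adjustment over 15286 genes per contrast. Other steps ran in python 3.11.15 (scipy 1.17.1, pandas 2.3.3, numpy 2.4.6, matplotlib 3.10.9). Promoter sequences came from the RefSeq table, in which all 5 genes shown were matched, and were searched for motif letters. Genome sequence of the regions was not used here.

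Members, lists and tests were chosen with earlier results of these data known. Named genes were the 3 members, protein-coding genes within 250 kb, listed proteoglycan and matrix genes that passed or had coverage in at least 6 libraries, and the 5 genes most correlated with Prelp over 1 Mb away. Family members without coverage, marker genes, Btg2 and the long non-coding RNAs were named beyond this rule. In simulated data for the sgB2 average over 15286 genes, the fit called 94 of 100 genes changed by 1 and 66 of 100 changed by 0.5 on the log2 scale, with 10 false calls. One item withheld for evaluation is not reported here.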

Additional observations from a re-analysis of the deposited data

How the results depend on the processing

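The T618I differences kept their sign for the 3 genes in all alternatives that gave a value. With 100 bp added they were -1.45 for Optc and -1.60 for Prelp, with 1000 bp -0.89 and -0.92, and with equal-length lists -1.60 and -1.46. Without scaling Optc was at -0.90 and Fmod at 0.54, and with 10 kb windows Optc was at -0.80. Prelp and Fmod could not be fitted with 10 kb windows, nor Optc and Prelp with peaks of a −log10 q of at least 5, since their mean coverage fell below 500 bp. Leaving out 1 library at a time gave -1.28 to -1.13 for Prelp, -1.23 to -1.07 for Optc and 0.20 to 0.35 for Fmod.

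Without scaling the median of all genes was 0.20 for T618I and -0.14 for sgB2, and scaled to chromosome 1 it was -0.38 for sgB2. In the sgB2 comparison Optc turned to -0.29 with 10 kb windows, -0.021 without scaling and -0.24 scaled to chromosome 1. Prelp turned to 0.027 with 100 bp added and to 0.19 with equal-length lists, and passed the limma test at -0.34 scaled to chromosome 1. Fmod missed it at 0.26 without scaling, 0.018 scaled to chromosome 1, 0.41 with stricter peaks and 0.40 with equal-length lists (limma adjusted p from 0.0748 to 0.885 in these). Without single libraries it was 0.34 to 0.48, that of Optc 0.041 to 0.20 and that of Prelp -0.086 to 0.073. With equal-length lists the sgB2 value within Empty turned to 0.36 for Optc and 0.089 for Prelp, and the difference of T618I changes turned to -0.070 for Optc. That of Fmod turned to 0.037 with stricter peaks, and ran from -0.20 to 0.085 without single libraries, 0.37 to 0.69 for Optc and 0.32 to 0.64 for Prelp. Within T618I the sgB2 value of Prelp turned to -0.027 scaled to chromosome 1.

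The covered length of the interval differed by 0.332 kb without scaling (exact p = 0.61), -0.528 kb scaled to chromosome 1 (exact p = 0.19) and 0.741 kb with stricter peaks (exact p = 0.055), by 2 peaks when peaks were counted (exact p = 0.06), and by 0.720 to 1.15 kb without single libraries. Counts of genes called for sgB2, 432 as reported, were 122 with 10 kb windows, 22 without scaling, 10702 scaled to chromosome 1 and 118 with stricter peaks, and 225 to 585 without single libraries. Of the 10 regions in at least 2 libraries 5 were left with stricter peaks, and of the 2 in all 12 libraries 0 were left when a peak had to cover at least 50% of the region. The causes of these changes were not tested beyond what each alternative changes by construction.

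Replicate numbers did not pair the libraries: over 18 same-numbered pairs the deviations from group means correlated between -0.16 and 0.22, with 4 pairs over 0.1. With the replicate number as a block, the Fmod value for sgB2 was 0.41 with a limma adjusted p = 0.0327, and the interval difference of 0.880 kb had an exact p = 0.0625 over 64 arrangements. Depth was not given, so weak peaks, such as most around Optc and Prelp, may be missed in the shorter lists. In simulated data changes of 0.5 were often not called.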
